A study of Drosophila melanogaster with 12 samples.

Results

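The genes described here encode cuticle proteins that carry the Rebers and Riddiford domain, known as R and R proteins. They were chosen by symbol, as genes listed under a name that begins with Cpr and a digit, with Ccp84 or with Lcp and a digit. The deposited tables list 43 such genes, and 37 of them reached at least 10 counts in 3 or more of the 12 libraries. All 37 were among the 12809 genes tested.

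RNA of whole adult Drosophila melanogaster of the Canton S background, 10 to 11 days old, was sequenced after polyA selection. Each of 4 groups held 3 libraries. Het flies were AKHR +/- with no obese parent, paternal (Pat) flies were AKHR +/- with an obese father, and maternal (Mat) flies were AKHR +/- with an obese mother. Wildtype (WT) flies had neither the mutation nor an obese parent. AKHR is the receptor for adipokinetic hormone, which mobilises stored fat. The 3 AKHR +/- groups share genotype and background and differ in the parent. The sources used here give neither the allele, nor the sex of the flies, nor the number pooled per library.

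The insect cuticle is a layered coat of chitin fibres and proteins that the epidermis secretes. The R and R domain binds chitin, and the family is the most numerous group of cuticle proteins in flies. Most members are made in bursts when a new cuticle is laid down at a moult, and each stage and body part uses its own subset. Adult flies do not moult again, so RNA of this family in flies of this age comes long after eclosion.

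Listed reads per library ran from 17212029 to 21370713. Transcripts typical of males were abundant: the 7 accessory gland markers summed to 2795 to 3512 CPM and the roX RNAs of male dosage compensation to 313 to 400 CPM, whereas the 3 yolk protein genes summed to 11.97 to 18.01 CPM. Only 2 of 6 chorion genes are listed, at 3.78 to 5.97 CPM in sum. Of the 6 larval salivary glue genes only 1 is listed, at 0.228 to 1.02 CPM. CPM is the depth-scaled read count, here after trimmed mean of M-values (TMM) scaling of library sizes. Maternal replicate 1 stood apart: 88 genes named RpL or RpS held 6.08% of its counts, whereas their share in the remaining 11 libraries was 5.22 to 5.59%. Leaving it out changed no count of members called.

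The listed genes are a fraction of the family. A table of current names holds 94 genes under the same symbol pattern, and 51 of them were not analysed here. All 43 listed genes keep their symbols and are protein coding in the current annotation. Of 18 genes named for region 65A only 2 are listed, and of 7 named for 84A only 1. Region 49A is fuller, with 6 of 8, and region 47E has 4 of 7. The 37 genes past the count rule lie mostly on 2R and 3L, with 15 on each, and their longest proteins run from 93 to 1231 residues. Of the 43, 21 lie in 7 clusters in which neighbouring listed members are at most 30 kb apart, and 22 lie alone. All coordinates are on the dm3 build.

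The count rule drew its line among genes with very few reads. Just inside it, Lcp1, a gene named for the larval cuticle, had 5 to 12 counts per library and reached 10 in 5 libraries. Cpr92F had 6 to 20 counts and reached 10 in 7 libraries. Just outside, Cpr64Ac had 3 to 11 counts and reached 10 in 2 libraries, and Cpr64Ad had 0 to 10 counts and reached 10 in 1. Cpr11A reached 10 in 1 library as well. Cpr47Eg, Cpr50Cb and Cpr76Bb have no value in the maternal libraries, and each reached 10 in 1 of the other 9.

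Levels differed widely within the family. The deposited FPKM values, which correct for transcript length, had a median of 3.68 over the 37 members. It was 12.9 over all genes with values in every library, to which the count rule was not applied. Of the 37 members, 6 averaged under 1 FPKM, 23 lay between 1 and 10, and 8 were at 10 or more. The 6 members that the count rule removed averaged 0.201 to 0.544 FPKM over the libraries with a value. Among the 37, the highest mean was 1172 times the lowest. The 5 most abundant genes took 75.1% of the members' reads.

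Cpr65Au was the most abundant member. Its FPKM was 388, 380 and 408 in het flies, 416, 393 and 399 in paternal flies, 445, 401 and 413 in maternal flies, and 410, 418 and 411 in wildtype flies. The lowest library was het replicate 2, the highest was maternal replicate 1, and the 4 groups overlapped. Its mean of 407 FPKM was above that of 97.7% of genes, and it took 27.5% of the members' reads. It encodes one of the shorter proteins of the set, of 106 residues.

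Cpr67Fb and Cpr49Ab followed, with means of 140 and 132 FPKM and ranges over the 12 libraries of 123 to 156 and 104 to 145. These ranges overlap, so the order of the pair was not settled. Cpr67B averaged 76.7 FPKM, Cpr49Ae 54.2 FPKM and Cpr62Bb 20.5 FPKM, and the ranges of these 3 overlapped neither each other nor those of the genes next to them in the order. Below them came Cpr57A at 13.0, Cpr51A at 10.6, Cpr56F at 9.16 and Cpr60D at 8.996 FPKM. From Cpr57A downward the range of every gene overlapped that of the next in the order. Among members past the count rule, Cpr50Ca, Cpr51A, Cpr56F, Cpr57A and Cpr11B overlap other listed genes in their coordinates. The strand setting of the counting is not given, so their values may include reads of those genes.

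**Figure D1:**
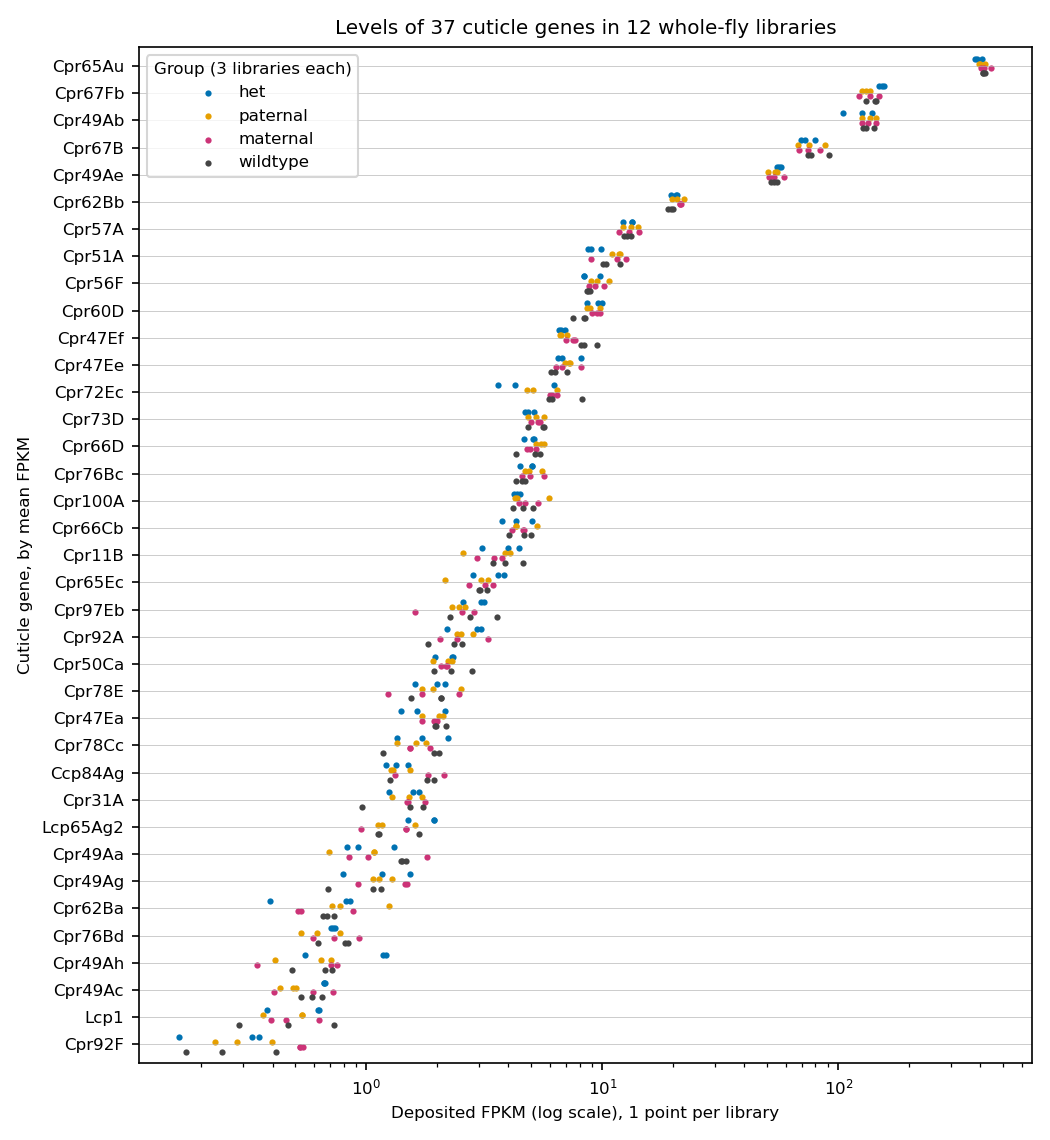
Deposited FPKM on a log scale for the 37 cuticle genes, 1 point per library, with groups offset from het at the top to wildtype at the bottom of each line. Cpr65Au lies apart near 400 FPKM, 6 genes average under 1 FPKM, and the groups overlap along most lines.

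Genes lying side by side could differ by more than 10 times in level. Cpr65Au (3L:6124415-6125209, minus strand) lies 880 bases from Lcp65Ag2 (3L:6126090-6126693, minus strand), and their means were 407 and 1.42 FPKM. Cpr49Ab (2R:8265945-8266901, plus strand) lies 1061 bases from Cpr49Aa (2R:8264175-8264883, plus strand), and their means were 132 and 1.16 FPKM. Cpr62Bb (3L:1832636-1835164, minus strand) and Cpr62Ba (3L:1824129-1831783, minus strand), 852 bases apart, averaged 20.5 and 0.732 FPKM. Cpr47Ee and Cpr47Ef, by contrast, lie 58 bases apart on opposite strands and averaged 6.95 and 7.38 FPKM. Lcp65Ag2 belongs to a tandem array of close copies, so its counts depend on how shared reads were assigned, which the sources used here do not state.

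The summed level of the 37 genes was close across groups. The sum was 652.4 ± 24.1 CPM in het, 663.8 ± 7.64 CPM in paternal, 677.2 ± 24.5 CPM in maternal and 684.2 ± 13.6 CPM in wildtype flies (SD, n = 3 each). Library sums ran from 625 to 669 CPM in het flies, 655 to 670 CPM in paternal flies, 651 to 699 CPM in maternal flies and 669 to 696 CPM in wildtype flies. The paternal and maternal ranges overlapped the wildtype one, and the highest het library lay just under the lowest wildtype library.

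The comparisons with wildtype ask how AKHR +/- flies of each parentage differ from flies without the mutation. In them 1 cuticle gene changed, Cpr47Ef, which fell in het and paternal flies. It encodes a protein of 612 residues and lies on chromosome 2R from 7154420 to 7160019 on the minus strand. In whole flies, less RNA per cell and fewer cells of a type cannot be told apart. Its level was 13.8, 14.3 and 14.7 CPM in het flies, 14.0, 15.2 and 14.1 CPM in paternal flies, 16.3, 15.97 and 15.02 CPM in maternal flies, and 20.4, 18.1 and 17.6 CPM in wildtype flies. All 9 AKHR +/- libraries lay below all 3 wildtype libraries, and wildtype replicate 1 was the highest of the 12.

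In Het vs WT the log2 change of Cpr47Ef was -0.39 (SE 0.0744, 95% interval -0.54 to -0.23, adjusted p = 0.0137 in edgeR's quasi-likelihood test). In Pat vs WT it was -0.37 (SE 0.0742, adjusted p = 0.0219 in the same test). In Mat vs WT it was -0.24 and did not pass (adjusted p = 0.194). Maternal flies were not shown to differ from the other AKHR +/- flies either: the log2 difference was 0.15 in Mat vs Het (95% interval -0.01 to 0.30), and Mat vs Pat gave 0.13 (95% interval -0.03 to 0.29). These 3 comparisons share the wildtype libraries. The authors' deposited values for Cpr47Ef in Het vs WT are a log2 ratio of -0.24 and, in their own test, an adjusted p of 0.0385. It is the only member there under 0.05, and no member is under 0.05 in the other 4 deposited comparisons. Deposited ratios were often smaller in size than those fitted here: Cpr72Ec in Het vs WT had -0.20 there and -0.53 here. The sizes of the deposited and fitted ratios are thus unlike measures.

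As every AKHR +/- library lay below every wildtype library, the log2 difference in Cpr47Ef within a replicate number could only be negative. It was -0.56, -0.34 and -0.26 for numbers 1, 2 and 3 in Het vs WT, -0.54, -0.25 and -0.32 in Pat vs WT, and -0.32, -0.18 and -0.23 in Mat vs WT. The calls rested on few libraries. The Het vs WT call was lost without het replicate 1 (adjusted p = 0.106), het replicate 2 (0.0635) or wildtype replicate 1 (0.106), and the log2 change then lay between -0.39 and -0.32. The Pat vs WT call was lost without paternal replicate 1 (adjusted p = 0.168), paternal replicate 3 (0.126), wildtype replicate 1 (0.149) or wildtype replicate 2 (0.0536), and the log2 change then lay between -0.39 and -0.30.

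Summed levels of some marker lists also separated all 9 AKHR +/- libraries from wildtype, in both directions. The 7 accessory gland markers summed to 2838 to 2988 CPM in het, 2855 to 2929 CPM in paternal, 2795 to 3090 CPM in maternal and 3232 to 3512 CPM in wildtype flies. The 6 photoreceptor markers summed to 8531 to 8650 CPM in het, 8642 to 8807 CPM in paternal, 8429 to 8628 CPM in maternal and 9442 to 9883 CPM in wildtype flies. The 2 roX RNAs, too, were lower, at 350 to 359 CPM in het, 350 to 356 CPM in paternal, 313 to 365 CPM in maternal and 389 to 400 CPM in wildtype flies. The 9 testis and sperm markers were higher, at 2297 to 2480 CPM in het, 2309 to 2444 CPM in paternal, 2277 to 2732 CPM in maternal and 2159 to 2251 CPM in wildtype flies. The sums of the flight muscle, yolk protein, chorion, salivary glue and larval serum protein markers overlapped wildtype. Of single genes tested, 5.82% separated the 9 libraries from wildtype, in either direction. The roX sum was mostly roX1 (341.8 of 349.7 CPM in het replicate 1). The photoreceptor sum was mostly ninaE (7448 of 8650 CPM in that library). Whether the marker levels play a part in the level of Cpr47Ef was not tested.

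Cpr47Ee, the neighbour whose end lies 58 bases away, did not share the pattern. It had 11.1, 8.99 and 9.27 CPM in het flies, 10.0, 10.2 and 9.54 CPM in paternal flies, 11.2, 8.81 and 9.42 CPM in maternal flies, and 9.87, 8.44 and 8.79 CPM in wildtype flies. All 4 groups overlapped. Its log2 change in Het vs WT was 0.11 (95% interval -0.11 to 0.34) and did not pass the test.

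Cpr60D was the other member whose 9 AKHR +/- libraries lay on one side of wildtype. It encodes the shortest protein of the set. Its level was 4.74, 4.29 and 4.94 CPM in het flies, 4.26, 4.90 and 4.35 CPM in paternal flies, 4.84, 4.48 and 4.74 CPM in maternal flies, and 4.21, 3.76 and 4.24 CPM in wildtype flies. The AKHR +/- libraries were higher, but by little, and its log2 change of 0.19 in Het vs WT did not pass (adjusted p = 0.631 in edgeR's test). Such separation of 9 libraries from 3, in either direction, was seen in 2 of 37 members and in 5.82% of all genes tested, so its share was no higher in the family.

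Counted over the family, 1 of 37 members fell and 0 rose in Het vs WT, where 0.593% of all genes tested passed. In Pat vs WT 1 of 37 fell and 0 rose, against 0.523% of all genes. In Mat vs WT edgeR and DESeq2 both called 0 of 37, against 0.344% of all genes in edgeR. In Het vs WT 2 members had an unadjusted p under 0.05, and Pat vs WT had 1 and Mat vs WT 2 such members, which is 5.41%, 2.70% and 5.41% of them, against 10.7%, 10.5% and 12.1% of all genes. The median log2 change of the members was -0.01, -0.04 and -0.01 in these comparisons, and -0.01 in each over all genes.

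**Figure D2:**
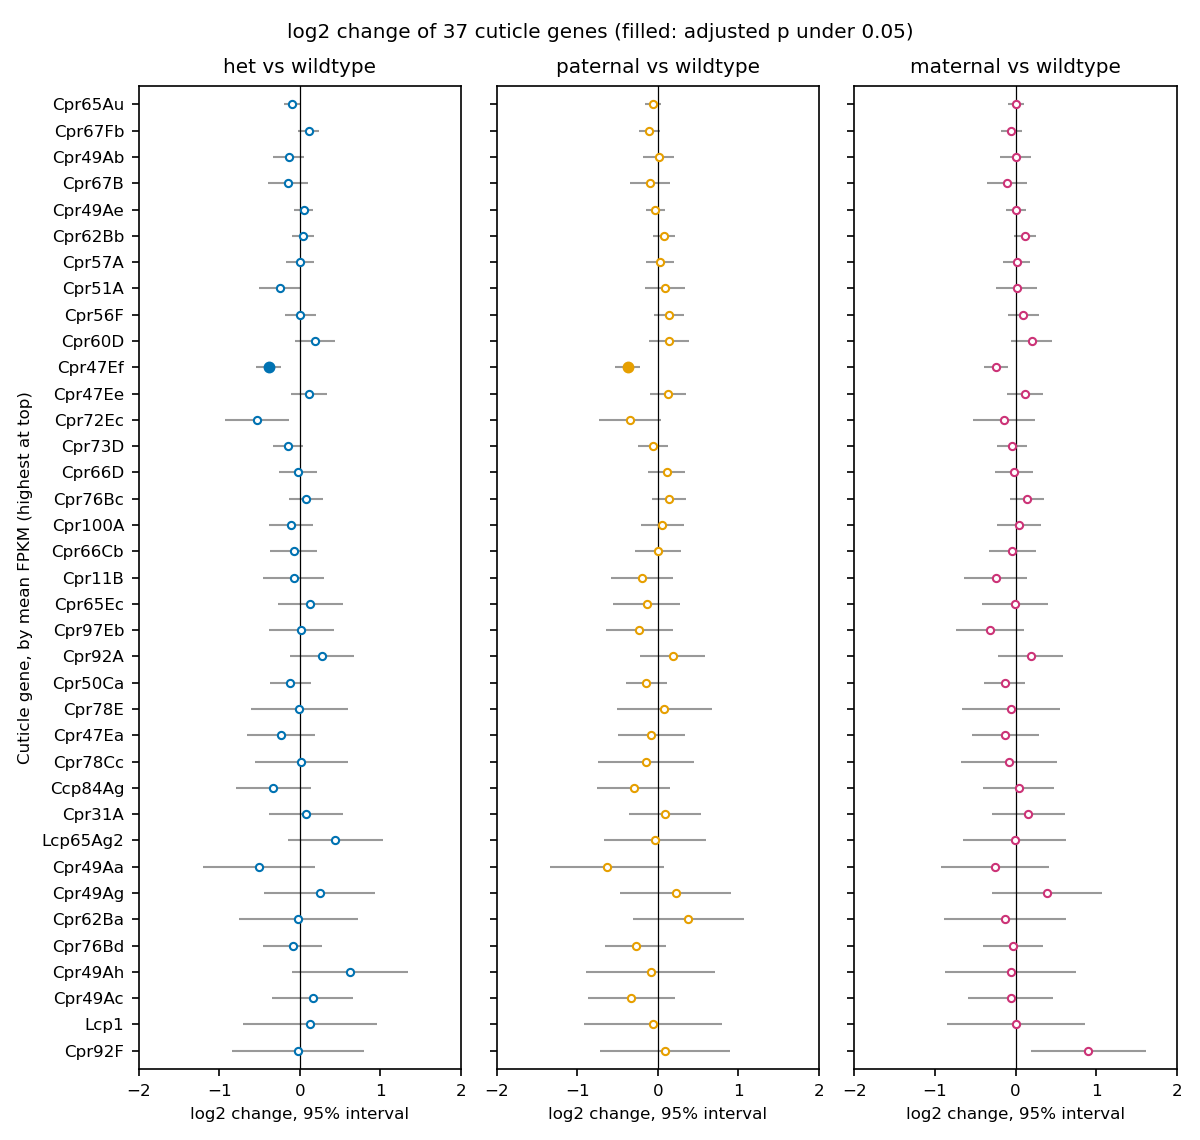
log2 change with its 95% interval for each of the 37 cuticle genes in het, paternal and maternal flies against wildtype, ordered by mean FPKM. Filled points passed an adjusted p of 0.05: Cpr47Ef in the het (-0.39) and paternal (-0.37) panels, and no gene in the maternal panel.

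The intervals show how much change the libraries could have missed. In Het vs WT the 95% interval lay wholly within a log2 change of 0.5 in either direction for 19 of 37 members, and within 1 for 34. The numbers were 18 and 35 in Pat vs WT and 21 and 35 in Mat vs WT. Among the 5 most abundant genes the log2 change in Het vs WT was -0.10 for Cpr65Au (95% interval -0.20 to 0.01), 0.11 for Cpr67Fb (-0.02 to 0.24), -0.14 for Cpr49Ab (-0.33 to 0.06), -0.15 for Cpr67B (-0.39 to 0.10) and 0.05 for Cpr49Ae (-0.07 to 0.17). None of the 5 passed. For low genes such as Lcp1, at 0.13 (95% interval -0.71 to 0.96) in Het vs WT, the depth could not show a change of that size.

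Cpr72Ec encodes a protein of the corneal lens, the clear cuticle over each facet of the eye. Its level was 5.17, 9.04 and 6.14 CPM in het flies, 6.90, 9.34 and 7.27 CPM in paternal flies, 8.65, 8.86 and 9.31 CPM in maternal flies, and 8.68, 11.99 and 8.99 CPM in wildtype flies. Het replicates 1 and 3 were the lowest of the 12 libraries, and het replicate 2 overlapped wildtype. The log2 change in Het vs WT was -0.53 (SE 0.184) and did not pass in edgeR's test (adjusted p = 0.285).

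With the replicate number as a block, Cpr72Ec passed in Het vs WT, with a log2 change of -0.54 (SE 0.117, adjusted p = 0.0162 in edgeR's test). Within numbers 1, 2 and 3 the log2 difference was -0.75, -0.41 and -0.55. The blocked call was lost without het replicate 1 (adjusted p = 0.167), het replicate 3 (0.0953) or wildtype replicate 2 (0.102), and was kept without het replicate 2, wildtype replicate 1 or wildtype replicate 3. Without the block, Cpr72Ec passed once het replicate 2 was left out, with a log2 change of -0.80 (adjusted p = 0.0273). The blocked fit thus called 2 of 37 members in Het vs WT, both lower, against 2.22% of all genes. In Pat vs WT it called 1 member, Cpr47Ef, against 1.61% of all genes, and in Mat vs WT 0, against 1.77%. In that fit an unadjusted p under 0.05 was reached by 6, 2 and 3 members in these 3 comparisons, which is 16.2%, 5.41% and 8.11%, against 15.2%, 14.8% and 18.1% of all genes.

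Some photoreceptor genes were also lower. Of the 6 photoreceptor markers, Arr1, an arrestin, and Rh3, an ultraviolet opsin, fell in Het vs WT without the block, with log2 changes of -0.20 and -0.29. With the block, Arr1, Rh3 and ninaE, another of these markers, were called lower in each of Het, Pat and Mat vs WT. The remaining markers, Rh4, Rh6 and Arr2, were called in no comparison. Of all genes, 0.593% were called in Het vs WT without the block. With it, 2.22%, 1.61% and 1.77% were called in Het, Pat and Mat vs WT. In the blocked fit Cpr72Ec passed only in Het vs WT. The sums of the 6 photoreceptor markers, given above and mostly ninaE, were lower in all 9 AKHR +/- libraries than in wildtype. Whether they play a part in the level of Cpr72Ec was not tested. Cpr66D, singled out after its values were seen because it also encodes a corneal lens protein, had 5.596, 5.64 and 5.10 CPM in het flies and 4.78, 5.81 and 6.08 CPM in wildtype flies. The groups overlapped, and its log2 change in Het vs WT was -0.03 (95% interval -0.26 to 0.21).

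Comparisons among the AKHR +/- groups ask whether an obese parent changed the progeny. No cuticle gene passed. In Pat vs Het edgeR and DESeq2 called 0 of 37 members, against 0.00781% of all genes with or without the block. In Mat vs Het they called 0, against 0.0156% in both fits, and in Mat vs Pat 0, against 0.0156% without the block and 0.0234% with it. With so few genes called anywhere, a count of 0 says little about the family. Members with an unadjusted p under 0.05 numbered 2 in Pat vs Het, 4 in Mat vs Het (Cpr92F, Cpr67Fb, Cpr65Au and Cpr51A) and 1 in Mat vs Pat (Cpr92F), which is 5.41%, 10.8% and 2.70%, against 2.11%, 4.15% and 2.75% of all genes. The median log2 change of the members was 0.02, 0.04 and 0.02, and over all genes it was 0.000231, -0.00486 and -0.00168. Without maternal replicate 1 the members' median was -0.000361 in Mat vs Het, and no member was called.

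The members nearest to a call in these comparisons were Cpr67Fb, Cpr51A and Cpr92F. They were picked for a small p, so separation of their libraries between groups follows in part from that choice. How many of all genes separate in the same way was not counted. Cpr67Fb had 62.2, 58.1 and 59.1 CPM in paternal flies, 67.9, 55.98 and 62.3 CPM in maternal flies, and 67.4, 70.1 and 70.7 CPM in het flies. Wildtype flies had 66.2, 60.5 and 66.2 CPM. Every paternal and wildtype library was below every het library, and 1 maternal library overlapped het. The log2 change was -0.22 in Pat vs Het (unadjusted p = 0.00295 and adjusted p = 1.0 in edgeR's test) and -0.16 in Mat vs Het (unadjusted p = 0.0186 and adjusted p = 0.993).

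Cpr51A had 7.90, 7.35 and 7.73 CPM in paternal flies, 8.37, 5.92 and 7.71 CPM in maternal flies, and 5.70, 6.59 and 5.92 CPM in het flies. Wildtype flies had 6.73, 7.96 and 6.999 CPM. Every paternal and wildtype library was above every het library, and maternal replicate 2 lay within the het range. The log2 change was 0.33 in Pat vs Het (adjusted p = 1.0 in edgeR's test), -0.25 in Het vs WT (adjusted p = 0.482) and 0.09 in Pat vs WT (adjusted p = 0.860), and none passed. Cpr51A overlaps CG30197 in the listed coordinates, and the strand setting of the counting is not given, so reads of the pair cannot be told apart.

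Cpr92F, one of the lowest genes, had 0.968, 0.995 and 0.971 CPM in maternal flies, 0.737, 0.525 and 0.417 CPM in paternal flies, 0.646, 0.2995 and 0.603 CPM in het flies, and 0.771, 0.323 and 0.460 CPM in wildtype flies. The 3 maternal libraries were above all the others. These levels rest on 17, 20 and 17 counts in maternal flies and 6 to 15 counts elsewhere. The log2 change was 0.93 in Mat vs Het, 0.81 in Mat vs Pat and 0.90 in Mat vs WT, and none passed (adjusted p = 0.993, 1.0 and 0.303 in edgeR's test).

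A few other members ranked among the 3 with the smallest p in a comparison without passing. Cpr65Au had a log2 change of 0.10 in Mat vs Het, Cpr62Bb 0.12 in Mat vs WT, Cpr49Aa -0.63 in Pat vs WT, Cpr49Ah -0.71 in Pat vs Het and Ccp84Ag 0.34 in Mat vs Pat. Cpr49Aa and Cpr49Ah averaged 0.624 and 0.689 CPM, so few reads stand behind their larger values.

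**Figure D3:**
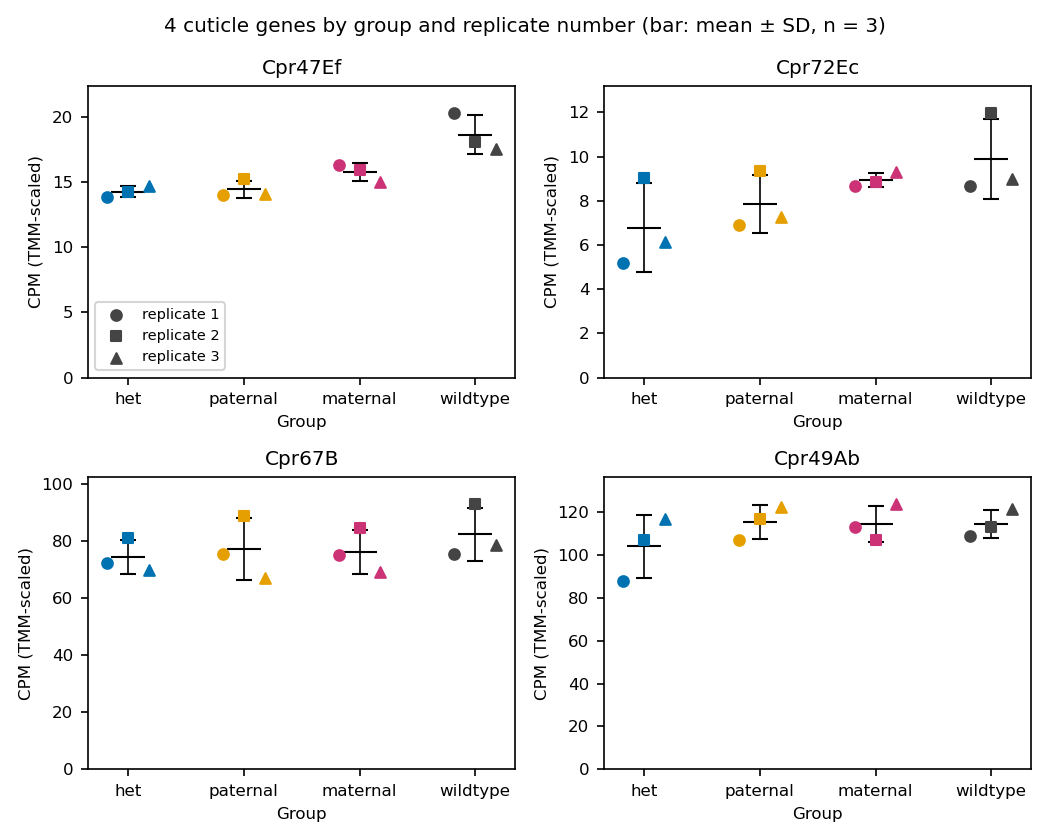
CPM of Cpr47Ef, Cpr72Ec, Cpr67B and Cpr49Ab by group, with het, paternal, maternal and wildtype from left to right, 1 point per library shaped by replicate number, and bars for mean ± SD (n = 3). Cpr47Ef is highest in wildtype, Cpr67B is highest in replicate 2 of every group, and Cpr49Ab is highest in replicate 3 of every group.

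Every group has replicate numbers 1, 2 and 3. Per the submitters' design text, the study was run as separate experiments that each gave a set of samples. A test of the numbers with group in the model called 3 of 37 members, Cpr67B, Cpr49Ab and Cpr72Ec, against 4.3% of all genes. An unadjusted p under 0.05 was reached by 6 members, 16.2%, against 20.3% of all genes. More members were thus called between numbers than in any comparison of groups, as also held for genes at large.

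Cpr67B had the clearest pattern. Its level was 72.3, 81.0 and 69.8 CPM in replicates 1, 2 and 3 of het flies, 75.6, 88.9 and 67.2 CPM in paternal flies, 75.1, 84.4 and 69.1 CPM in maternal flies, and 75.4, 93.0 and 78.6 CPM in wildtype flies. Replicate 2 was the highest in each of the 4 groups. Over the groups the means were 74.6 ± 1.56, 86.8 ± 5.24 and 71.2 ± 5.06 CPM for numbers 1, 2 and 3 (SD, n = 4 each), and the adjusted p was 0.000732 in edgeR's test. The call held when each of the 12 libraries was left out in turn, with adjusted p from 5.1e-06 to 0.0116.

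Cpr49Ab, second in share of the members' reads at 16.8%, had 87.9, 107 and 117 CPM in replicates 1, 2 and 3 of het flies, 107, 117 and 122 CPM in paternal flies, 113, 107 and 124 CPM in maternal flies, and 109, 113 and 122 CPM in wildtype flies. Replicate 3 was the highest in each group, by little in some. The means were 104.2, 111.1 and 121.3 CPM for numbers 1, 2 and 3 (adjusted p = 0.0233 in edgeR's test). The call was lost without replicate 3 of any of the 4 groups, without het replicate 1 or without paternal replicate 1, with adjusted p then from 0.0572 to 0.121.

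Cpr72Ec averaged 7.35, 9.81 and 7.93 CPM for numbers 1, 2 and 3 (adjusted p = 0.0382 in edgeR's test), and replicate 2 was the highest in the het, paternal and wildtype groups but not in the maternal one. The call held in only 4 of the 12 fits that left out a library: it was lost without any single het or paternal library and without wildtype replicate 2 or 3, with adjusted p up to 0.176. DESeq2 did not call it (adjusted p = 0.0935). The photoreceptor sum averaged 8833, 8862 and 8921 CPM for numbers 1, 2 and 3, and its part in the level of Cpr72Ec was not tested.

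The members of the set did not move together between numbers. Cpr47Ee, highest in number 1, and Cpr11B, highest in number 3, came next and did not pass (adjusted p = 0.159 for each in edgeR's test). The highest library had the same number in all 4 groups for 6 of 37 members, which is 16.2%, near the 13.2% of all genes. The number was 1 for Cpr65Ec, 2 for Cpr67B and Lcp1, and 3 for Cpr49Ab, Cpr49Ae and Cpr11B. Lcp1 had only 5 to 12 counts per library. Cpr49Ab and Cpr49Ae lie in the same cluster at 49A, and the other 4 members past the count rule in that cluster had no such order. Those 4 averaged only 0.624 to 0.994 CPM, too few reads to show differences as small as those of Cpr49Ab and Cpr49Ae.

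**Figure D4:**
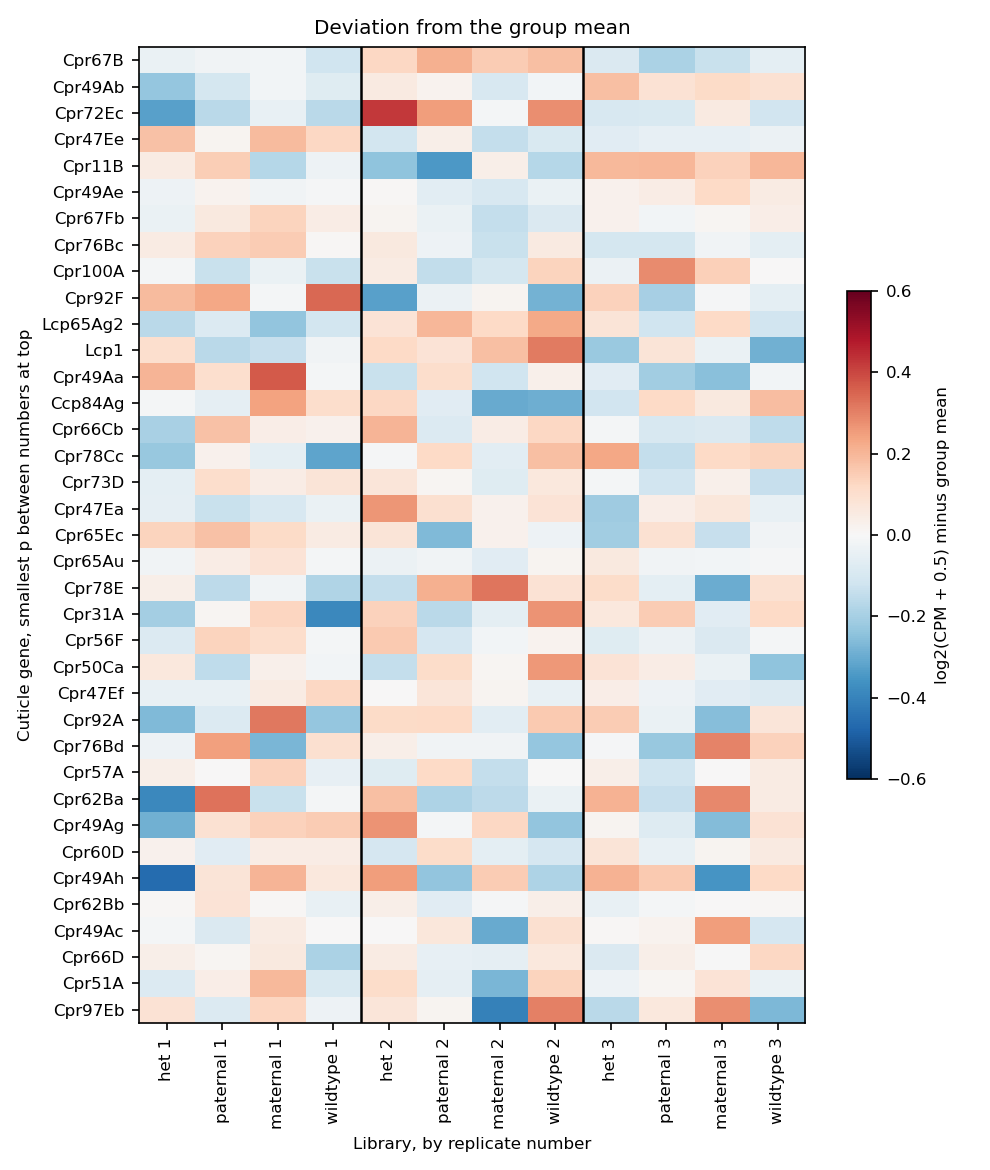
Deviation of log2(CPM + 0.5) from its group mean for 37 cuticle genes in 12 libraries, arranged by replicate number and ordered by p between numbers. Cpr67B is high across number 2 and Cpr49Ab and Cpr11B across number 3, and most rows below them show no block of one colour.

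Markers of some other tissues also differed between numbers. Of all genes, 4.3% were called there, and 20.3% reached an unadjusted p under 0.05 in edgeR's test. The 5 flight muscle markers summed to means of 1787, 1931 and 2159 CPM for numbers 1, 2 and 3, with Mhc and up called between numbers, and the 4 larval serum proteins to 1036, 1031 and 1447 CPM, with Lsp2 called. The 9 testis and sperm markers summed to 2472, 2337 and 2261 CPM, with Mst87F called and 6 of 9 at an unadjusted p under 0.05. The 7 accessory gland markers summed to 2981, 3117 and 2978 CPM, with 0 called in edgeR and 4 at an unadjusted p under 0.05. The photoreceptor, yolk protein, chorion, roX and salivary glue lists had 0 called. In these lists 1 of 6 photoreceptor markers, and no other gene, reached an unadjusted p under 0.05. Whether the marker levels play a part in the members' levels was not tested.

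In other lists of cuticle formation no gene passed in the comparisons of groups. Of all genes, 0.593%, 0.523% and 0.344% passed in Het, Pat and Mat vs WT without the block. With it, 2.22%, 1.61% and 1.77% did. Among the AKHR +/- groups at most 0.0234% passed in either fit. A count of 0 thus says little about such short lists. Called genes numbered 0, with or without the block, in all 6 comparisons for each of 5 lists: 3 R and R proteins under other names, 7 tested Tweedle cuticle proteins, 25 genes of chitin synthesis, assembly and turnover, 9 of sclerotization and pigmentation and 13 of the moulting hormone response and eclosion. At an unadjusted p under 0.05 in edgeR, Tweedle genes numbered 1, 2 and 3 of 7 in the het, paternal and maternal comparisons with wildtype, and chitin genes 1, 6 and 2 of 25, where 10.7%, 10.5% and 12.1% of all genes did. With the block the Tweedle counts were again 1, 2 and 3, and the chitin counts were 1, 8 and 5, where 15.2%, 14.8% and 18.1% of all genes did. The 10 listed Tweedle genes summed to 41.6 to 44.9 CPM in het, 42.1 to 45.5 CPM in paternal, 38.8 to 45.3 CPM in maternal and 36.2 to 39.95 CPM in wildtype flies. Every het and paternal sum lay above every wildtype sum, and the maternal range overlapped wildtype. The Tweedle list had median log2 changes of 0.21, 0.20 and 0.11 in these comparisons, and the chitin list -0.07, -0.09 and -0.06, against -0.01 for all genes. Between replicate numbers, ple, Dat and Hr38 were called (adjusted p = 0.0267, 0.0233 and 0.0034 in edgeR's test). They encode tyrosine hydroxylase, a dopamine acetyltransferase and a nuclear receptor. No gene of the R and R, Tweedle or chitin lists was called there, and 4.3% of all genes were.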

How the data were processed

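PolyA libraries of whole flies were made with the Illumina TruSeq kit, per the labels' protocols. The authors deposited read counts per gene, FPKM values, log2 ratios and adjusted p-values written as a score, per the file headers; gene lengths in bases are deposited beside them. The submitters' processing notes name Novoalign, DESeq and dm3; the sources used here name no version, annotation or strand setting. The score was read as minus 10 times log10 of the adjusted p. Counts and FPKM of a library were identical in every table that held it (0 disagreements). Joining gave 13040 genes. Those with a count in every library, 12982, were used, which drops 58. The lowest summed count of a listed gene in a table was 10.

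The deposited counts were fitted in R 4.3.3 with edgeR 4.0.16, on genes kept by filterByExpr (minimum count 10, minimum total 15; 12809 genes), with TMM scaling and a robust quasi-likelihood fit of all 12 libraries. Adjustment was by Benjamini-Hochberg over all genes tested, with a threshold of 0.05. Numbers were tested with 2 terms beside group. The common biological coefficient of variation was 0.0591. Its median was 0.0706 over the members and 0.0541 over all genes. DESeq2 1.42.0, limma 3.58.1, other scalings, other filters, the replicate block and leaving out each library were alternatives. Fits were tested on simulated data.

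The members, lists and tests were chosen with earlier results of these data known. Named genes were the members called in any comparison, the 10 highest by FPKM, the 3 with the smallest p in each comparison, the 5 with the smallest p between numbers and the 2 on each side of the count rule. Counts of libraries that separate or share a number, and Cpr66D, were added after the data were seen.

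That a replicate number marks an experimental set was read from the titles and the design text. The correlation of library deviations from the group mean, taken across genes, averaged 0.119 for same-numbered libraries and -0.0592 for others. It exceeded 0.1 in 11 of 18 same-numbered pairs (range -0.0273 to 0.221). For 11 of 12 libraries, the mean correlation with libraries of other groups was highest for their own number. Cultures are not described further, so the p-values refer to the spread between libraries, which may be technical. Protein lengths are of the longest isoform in Ensembl 115, matched by gene ID for all 43 members.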

Additional observations from a re-analysis of the deposited data

How the results depend on the processing

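In the 6 comparisons of groups the counts of members called kept their value with DESeq2, limma, DESeq2 size factors, no scaling, a filter of 10 counts in 3 libraries, no filter and only the 6 libraries compared. Between replicate numbers the count stayed at 3 with limma, no scaling and the filter of 10 counts in 3 libraries, and was 2 with DESeq2; DESeq2 size factors and no filter were not run for it. The replicate block raised the count in Het vs WT to 2, by adding Cpr72Ec, and changed no other count of members. Leaving out each library in turn gave counts of 0 to 1 in Het vs WT, 0 to 1 in Pat vs WT, 0 to 0 in Mat vs WT and in the comparisons among AKHR +/- groups, and 1 to 3 between numbers, where 1 call was left without het replicate 1 or 3, paternal replicate 1 or 3, or wildtype replicate 3. Where a group was left with 2 libraries, its spread was taken to be like that of the others. Apart from left-out libraries, the log2 change of Cpr47Ef ranged from -0.39 to -0.37 in Het vs WT and from -0.37 to -0.35 in Pat vs WT. Depth limits the low members: Lcp1, Cpr92F and Cpr49Aa rest on 5 to 20 counts per library.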

Other observations

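Retinin, another corneal lens gene, chosen after the values of Cpr72Ec were seen, had 72.6, 75.8 and 77.0 CPM in het flies, 66.5, 68.2 and 72.6 CPM in paternal flies, 76.8, 71.1 and 69.5 CPM in maternal flies, and 65.9, 66.6 and 77.2 CPM in wildtype flies. The 4 groups overlapped. Its log2 change in Het vs WT was 0.10 (SE 0.0627, adjusted p = 0.580 in edgeR's quasi-likelihood test), and it did not pass between replicate numbers either (adjusted p = 0.493). Whether the change of Cpr72Ec differs from that of the other lens genes was not tested.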
